A study of Medicago truncatula with 6 samples.

Results

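RAM1 (MTR_7g027190), RAD1 (MTR_4g104020) and MYB1 (MTR_7g068600) are 3 transcription factor genes of the arbuscule, which the fungus forms by branching inside a cortex cell of the root, and they were taken by locus from the 54762 loci of an RNA sequencing table. The table covers roots of the legume Medicago truncatula colonized by arbuscular mycorrhizal fungi, with 3 libraries of wild-type R108 and 3 of the Mtphr2 mutant, which the labels place in the same R108 background. The sources used here do not give the mutated locus, the allele, the fungus, the phosphate supply or the age of the plants. The labels name 3 technical replicates for each genotype, so p-values measure only the spread between these libraries. That spread was wide, up to 37.7-fold for MYB1 within Mtphr2, and its source was not tested. Totals of estimated counts ran from 18199040 to 21477169 per library, and all 3 genes were among the 22663 loci with enough counts to test. Means are given ± SD (n = 3 libraries), and a standard error of a fitted value or of a difference in ratio is written SE.

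An arbuscule lives for a few days, during which the plant first builds a membrane around the fungal branches and later takes the structure down. RAM1 and RAD1 belong to the GRAS family, plant regulators that mostly act in complexes with each other. RAM1 is needed for full branching of the arbuscule and for the expression of lipid supply genes such as RAM2, FatM and STR. RAD1 binds RAM1 and is needed for normal arbuscules. MYB1 acts at the other end of the arbuscule's life, where, with DELLA and NSP1, it promotes the expression of hydrolase genes as the arbuscule degenerates. PHR proteins are MYB-type regulators of the phosphate starvation response.

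The deposited annotation fits these names. RAM1 and RAD1 carry 1 GRAS domain each and their closest Swiss-Prot entries are the Medicago proteins of those names. MYB1 carries a Myb DNA-binding domain and the MYB-CC motif that also marks the PHR proteins, and its closest Swiss-Prot entry is the Arabidopsis protein PHL5. RAM1 and MYB1 have locus names on chromosome 7 and RAD1 on chromosome 4. Their estimated counts were whole numbers in all 6 libraries.

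Levels are in CPM, the estimated count per 1000000 counts of the TMM-scaled library size. RAM1 had 163, 83.7 and 34.3 CPM in R108 replicates 1, 2 and 3 (93.7 ± 64.8). In Mtphr2 replicates 1, 2 and 3 it had 36.0, 6.63 and 8.0 CPM (16.9 ± 16.6). The genotypes overlapped for RAM1, because Mtphr2 replicate 1 lay just above R108 replicate 3. The lowest level rested on 144 counts and the highest on 3001.

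RAD1 had 51.1, 29.0 and 14.7 CPM in R108 replicates 1, 2 and 3 (31.6 ± 18.3) and 12.3, 5.57 and 7.86 CPM in Mtphr2 replicates 1, 2 and 3 (8.58 ± 3.42). The genotypes did not overlap, but the lowest R108 value was only 1.20 times the highest Mtphr2 value. RAD1 had the narrowest range of the 3 genes, 3.47-fold in R108 and 2.21-fold in Mtphr2.

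MYB1 had 1307, 574 and 333 CPM in R108 replicates 1, 2 and 3 (738 ± 507) and 257, 6.82 and 36.9 CPM in Mtphr2 replicates 1, 2 and 3 (100.3 ± 137). For MYB1 the genotypes also stayed apart, with the lowest R108 value 1.30 times the highest Mtphr2 value. R108 libraries ranged 3.92-fold and Mtphr2 libraries 37.7-fold, and the lowest MYB1 level was that of Mtphr2 replicate 2, with 148 counts against 24088 in R108 replicate 1. Of the 22663 tested genes, 10.6% were lower in Mtphr2 with no overlap between genotypes, and 2 of the 3 genes were.

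**Figure D1:**
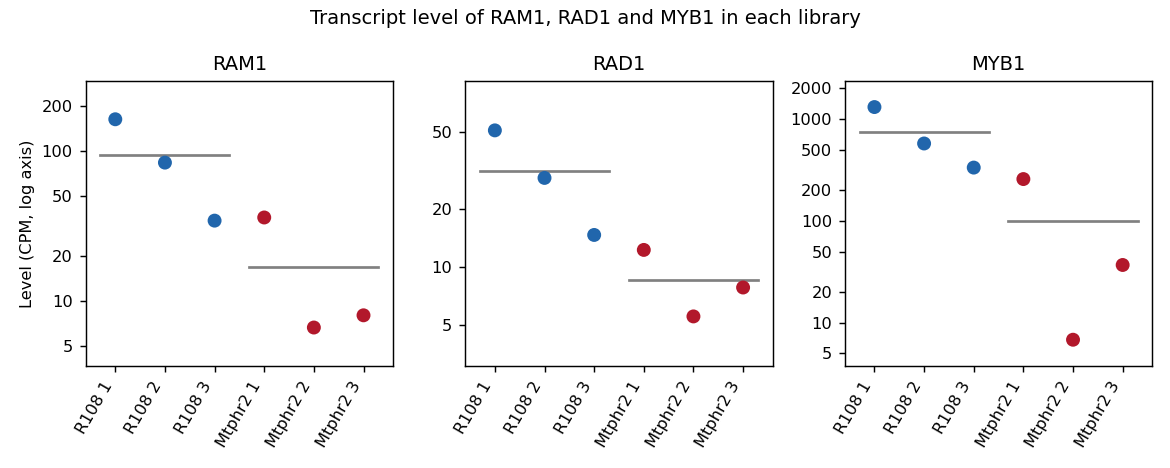
Level of RAM1, RAD1 and MYB1 (CPM, log axis) in each of the 3 R108 libraries (blue) and 3 Mtphr2 libraries (red), with grey lines at the genotype means. R108 replicate 1 is the highest and Mtphr2 replicate 2 the lowest library in all 3 panels, and Mtphr2 replicate 1 lies near R108 replicate 3.

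The libraries fell in nearly the same order for the 3 genes. R108 replicate 1 was highest, then R108 replicate 2, then R108 replicate 3 and Mtphr2 replicate 1 close together, then Mtphr2 replicate 3 and Mtphr2 replicate 2. RAD1 and MYB1 had the same order, and RAM1 differed from it only in the place of Mtphr2 replicate 1 above R108 replicate 3. Over all 6 libraries RAM1 spanned 24.6-fold, RAD1 9.17-fold and MYB1 192-fold. On the log2 scale these ranges, 4.60, 3.17 and 7.56, placed 167th, 451st and 38th among 15267 described genes with a mean of at least 5 CPM, whose median range was 0.54.

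Per kilobase of the deposited gene length, MYB1 was the most abundant of the 3 in every library. In R108 its level was 739 ± 508 CPM per kb, against 46.2 ± 32.0 for RAM1 and 18.7 ± 10.8 for RAD1. In Mtphr2 the levels were 100.4 ± 137 for MYB1, 8.33 ± 8.18 for RAM1 and 5.07 ± 2.02 CPM per kb for RAD1. Within those libraries RAM1 was 2.45-fold RAD1 in Mtphr2 replicate 1, but 0.994- and 0.851-fold in Mtphr2 replicates 2 and 3. MYB1 ranked 17th by level per kb among 21548 tested annotated genes in R108 replicate 1, 86th in R108 replicate 2, 204th in R108 replicate 3 and 291st in Mtphr2 replicate 1. It ranked 3335th in Mtphr2 replicate 3 and 12426th in Mtphr2 replicate 2. RAM1 ranked 1465th in R108 replicate 1 and 15814th in Mtphr2 replicate 2, and RAD1 4336th and 15788th in the same libraries.

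The comparison of genotypes asked whether the transcripts of these regulators differ between mycorrhizal roots of R108 and of Mtphr2. By edgeR's quasi-likelihood test, the log2 fold change in Mtphr2 over R108 was -1.88 for RAD1 (SE 0.501), with an adjusted p of 0.206. It was -2.47 for RAM1 (SE 0.839), with an adjusted p of 0.259, and -2.88 for MYB1 (SE 1.26), with an adjusted p of 0.320, also by edgeR. None of the 3 passed, where 0.0794% of all tested genes did (18 of 22663), and an unadjusted p under 0.05 was found for RAM1 and RAD1, as for 16.4% of all tested genes. DESeq2 called 1 of the 3, RAD1 (adjusted p = 0.00504), with RAM1 at 0.0988 and MYB1 at 0.179, and it called 5.73% of all tested genes. Limma-voom called 0 of the 3 and 0.137% of all tested genes. By edgeR and DESeq2, RAD1, with the smallest fitted difference of the 3 genes, also had the smallest SE and the smallest p. By limma-voom RAM1 had the smallest unadjusted p, 0.0155 against 0.017 for RAD1. In bulk roots, fewer cells with arbuscules and less RNA per such cell cannot be told apart.

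The size of the difference depended on single libraries. Without Mtphr2 replicate 1, the fitted log2 change was -3.68 for RAM1 and -5.08 for MYB1. Without R108 replicate 1 it was -1.81 for RAM1, -1.35 for RAD1 and -2.18 for MYB1. All 18 fits of a gene with 1 library left out gave a lower level in Mtphr2, and 0 of them passed edgeR's test, with adjusted p of 0.126 to 0.571. In libraries of the same number, R108 was above Mtphr2 by 4.53-, 12.6- and 4.29-fold for RAM1, by 4.15-, 5.20- and 1.88-fold for RAD1 and by 5.09-, 84.2- and 9.03-fold for MYB1. With a term for the replicate number (the replicate block) the log2 changes were -2.62 for RAM1, -1.79 for RAD1 and -3.80 for MYB1, and none passed, with adjusted p by edgeR of 0.0650, 0.0826 and 0.127, where 0.335% of all tested genes did.

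**Figure D2:**
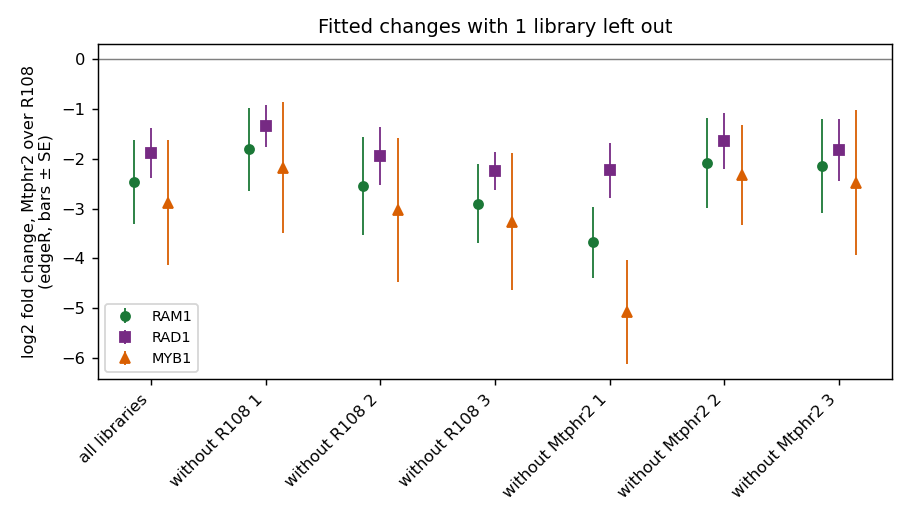
Fitted log2 fold change (Mtphr2 over R108, edgeR, bars ± SE) of the 3 genes with all 6 libraries and with each library left out in turn. All points lie below 0, and those of RAM1 and MYB1 are lowest without Mtphr2 replicate 1, at -3.68 and -5.08.

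Other genes of the arbuscule were measured beside them, as a list of 12 by locus: the phosphate transporters PT4 and PT8, the lipid exporters STR and STR2, the lipid synthesis genes RAM2 and FatM, EXO70I of membrane delivery, VAPYRIN of fungal entry, the ammonium transporter AMT2;3, the proton pump HA1, the sugar transporter SWEET1b and the AP2 factor WRI5a. The fitted level of each of the 12 was more than 2-fold lower in Mtphr2, with log2 fold changes of -2.89 to -1.96 and a median of -2.36. Of all tested genes 4.84% had such a fitted fall, and the median over all was 0.02. Of the 12, 0 passed edgeR's test (0.0794% of all tested genes did), and 10 had an unadjusted p under 0.05 (16.4% of all). DESeq2 called 3 (5.73% of all) and limma-voom 0 (0.137% of all). SWEET1b passed with the replicate block (-2.78 on the log2 scale, adjusted p = 0.0345 by edgeR), as did 0.335% of all tested genes. Every one of the 12 had a larger fitted difference than RAD1, 4 had a larger one than RAM1, and 1, SWEET1b, had a larger one than MYB1. Every marker had counts in all libraries, but AMT2;3 had only 8 in R108 replicate 3 and 2 and 8 in Mtphr2 replicates 2 and 3. The mean log2 CPM of the 12 was 7.09, 5.89 and 4.60 in R108 replicates 1, 2 and 3. It was 4.85, 2.32 and 3.10 in Mtphr2 replicates 1, 2 and 3. With this mean as a covariate the log2 differences shrank to -0.28 for RAM1 (SE 0.230), -0.37 for RAD1 (SE 0.259) and -0.59 for MYB1 (SE 0.688), with adjusted p by edgeR of 0.692, 0.640 and 0.791. The markers were themselves lower in Mtphr2, and RAM2, FatM and STR among them need RAM1. A smaller difference was therefore built into this fit, which cannot separate genotype from marker level.

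**Figure D3:**
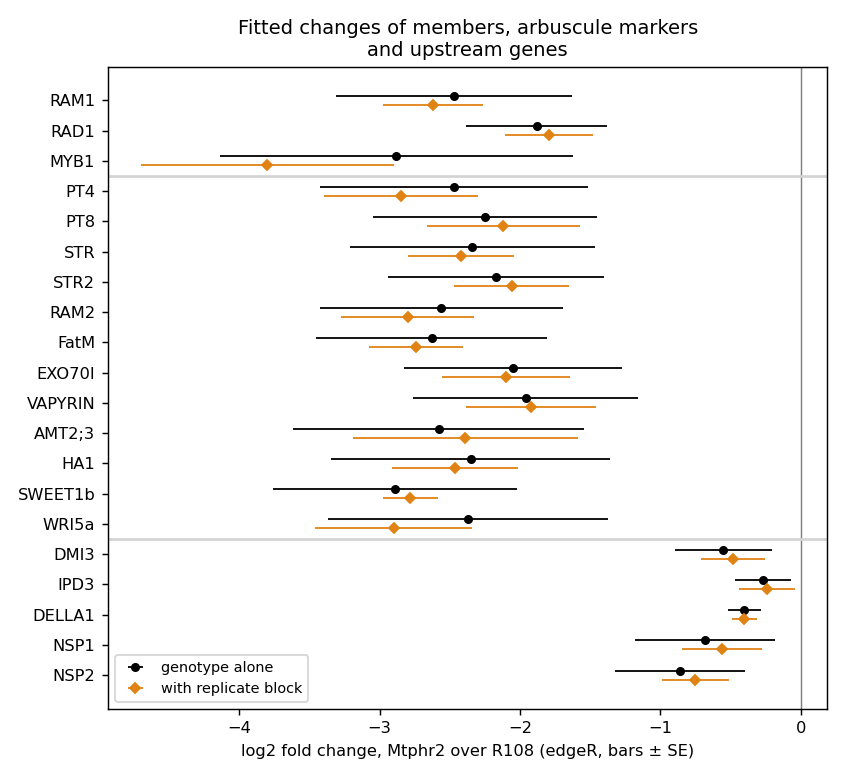
Fitted log2 fold change (Mtphr2 over R108, edgeR, bars ± SE) of RAM1, RAD1 and MYB1, of 12 arbuscule markers and of 5 upstream or partner genes, from the genotype alone (black) and with the replicate block (orange). The 3 genes and the markers lie between -3.80 and -1.79 in both fits, and the upstream genes between -0.86 and -0.24.

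The libraries were next compared by the ratio between genes within each, which does not change where the genes go down by the same factor. MYB1 exceeded RAM1, in counts per kb, by 16.3-, 13.9- and 19.7-fold in R108 replicates 1, 2 and 3 and by 14.5-fold in Mtphr2 replicate 1. In Mtphr2 replicates 2 and 3 it did so by only 2.08- and 9.35-fold. The first 4 libraries thus held the genes in nearly 1 proportion while their levels changed, and the last 2 did not.

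RAM1 exceeded RAD1, in counts per kb, by 2.66-, 2.41- and 1.95-fold in R108 replicates 1, 2 and 3 and by 2.45-fold in Mtphr2 replicate 1, against 0.994- and 0.851-fold in Mtphr2 replicates 2 and 3. MYB1 exceeded RAD1 by 33.6- to 43.4-fold in those first 4 libraries and by 2.07- and 7.96-fold in Mtphr2 replicates 2 and 3. The same 2 libraries therefore stood apart in all 3 pairings. They were also the 2 libraries with the lowest marker mean, and no R108 library had a marker mean as low, so genotype and marker level cannot be told apart in them.

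On the log2 scale, the difference in ratio between genotypes (Mtphr2 minus R108) was -1.33 for MYB1 to RAM1 (SE 0.857), -2.20 for MYB1 to RAD1 (SE 1.19) and -0.87 for RAM1 to RAD1 (SE 0.492). Against the marker mean, it was -1.53 for MYB1 (SE 0.802), -0.20 for RAM1 (SE 0.175) and 0.67 for RAD1 (SE 0.472). The ratio of MYB1 to the marker mean was 3.26, 3.27 and 3.78 in R108 replicates 1, 2 and 3 and 3.16, 0.47 and 2.11 in Mtphr2 replicates 1, 2 and 3, so the genotypes did not overlap, although R108 replicate 1 and Mtphr2 replicate 1 lay close together. Its p was 0.1 in a two-sided exact permutation test, the smallest that 3 against 3 libraries allow, and the other 5 ratios had exact p of 0.2 or 0.3. Adjusted over the 6 ratios the exact permutation p was 0.3 for each. Without Mtphr2 replicate 2 the difference for MYB1 to the marker mean was -0.80 and that for MYB1 to RAM1 -0.51.

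**Figure D4:**
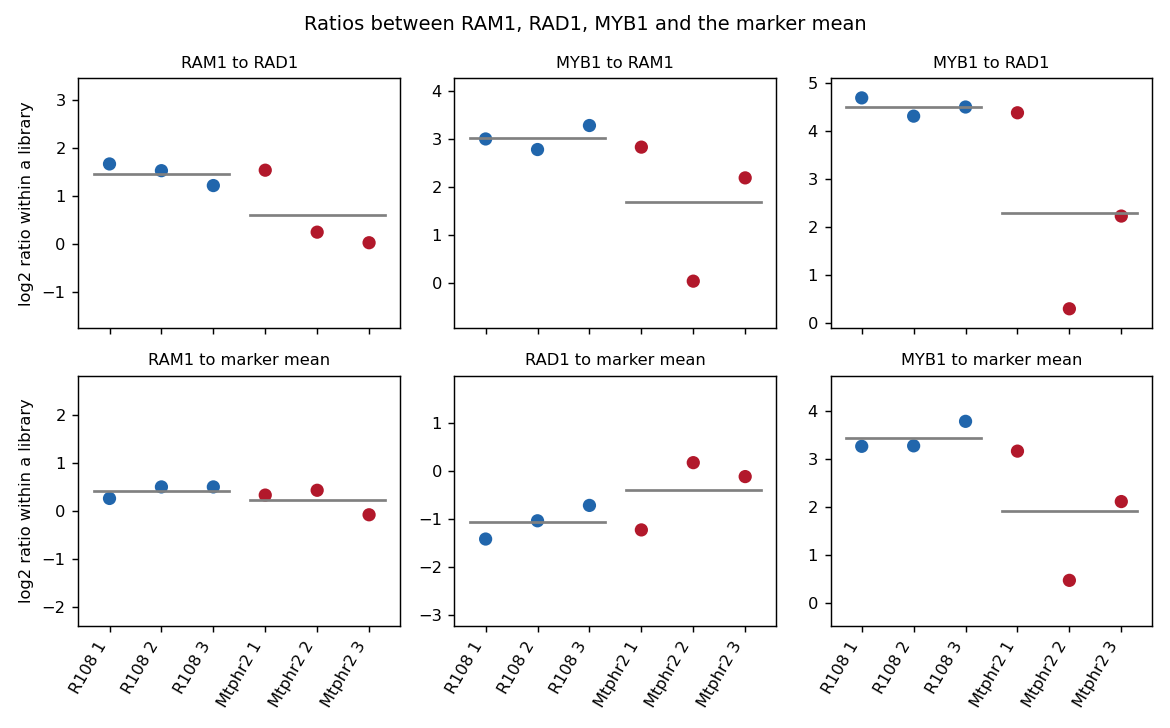
Log2 ratio within each library between pairs of the 3 genes (top) and between each gene and the mean of 12 arbuscule markers (bottom), for R108 (blue) and Mtphr2 (red), with grey lines at genotype means and 1 span of the vertical axis in all panels. Ratios with MYB1 are lowest in Mtphr2 replicate 2, and RAM1 to the marker mean stays between -0.08 and 0.50 in all 6 libraries.

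RAM1 was the one of the 3 that kept closest to the markers. The root mean square difference between mean-centred log2 profiles over the 6 libraries measures likeness in both shape and size of change, and 0 is an identical profile. RAD1 and MYB1, whose libraries fell in the same order, were 1.62 apart. A gene can therefore lie far from MYB1 by the wide range of MYB1 alone. Of the 12 markers 9 were closest to RAM1 among the 3 genes and 3, PT8, STR2 and VAPYRIN, were closest to RAD1, while 0 were closest to MYB1. The distance to RAM1 was 0.0672 for FatM, a thioesterase that releases fatty acids for the fungus, 0.155 for STR and 0.227 for RAM2. The distance to MYB1 was 0.741 for WRI5a and 0.761 for PT4, the 2 markers nearest to it. These likenesses are descriptions without a test, over 6 libraries whose depth and marker level all the genes share.

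**Figure D5:**
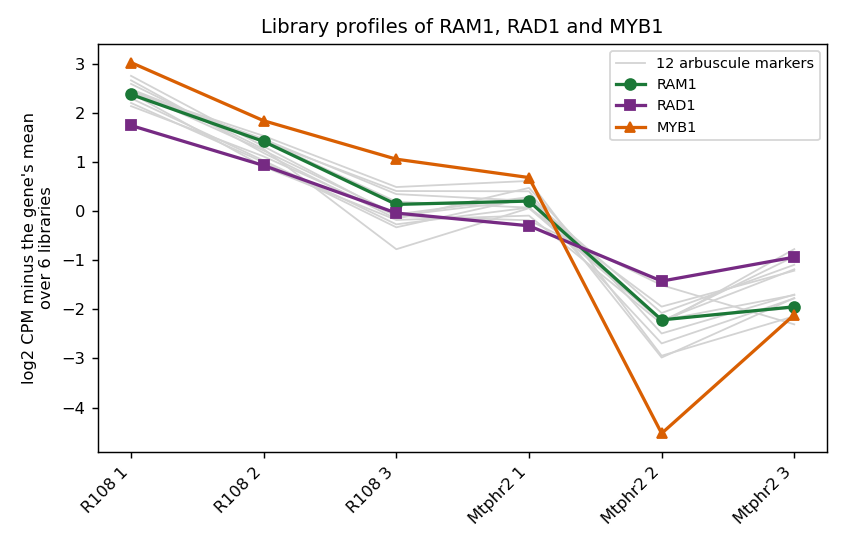
Log2 CPM minus each gene's mean over the 6 libraries, for RAM1, RAD1, MYB1 and 12 arbuscule markers (grey); lines join the values of 1 gene and imply no order of libraries. RAM1 runs inside the band of markers, RAD1 is flattest, and MYB1 drops below all others in Mtphr2 replicate 2.

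Among all 15267 described genes with at least 5 CPM, the 5 with profiles nearest to RAM1 were a Kunitz-type trypsin inhibitor gene, MTR_8g461050 (distance 0.0432), FatM, a legume lectin gene, MTR_8g067980 (0.103), an F-box gene, MTR_7g089730 (0.113), and an RD22-like gene, MTR_3g107830 (0.125). MTR_8g461050 had 93.9, 52.0 and 19.7 CPM in R108 replicates 1, 2 and 3 and 20.4, 3.78 and 4.67 CPM in Mtphr2 replicates 1, 2 and 3, the overlap of R108 replicate 3 with Mtphr2 replicate 1 included.

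The 5 nearest to RAD1 were a GDSL-like lipase gene, MTR_2g044100 (0.122), an antifungal domain gene, MTR_7g094760 (0.137), a WD40 repeat gene, MTR_5g024210 (0.160), a glucosyltransferase gene, MTR_7g070940 (0.186), and an N-acetylglucosaminyltransferase-like gene, MTR_7g033325 (0.189). MTR_2g044100 had 91.8, 64.8 and 30.3 CPM in R108 replicates 1, 2 and 3 and 28.0, 12.8 and 15.8 CPM in Mtphr2 replicates 1, 2 and 3. It shares with RAD1 the narrow range among the Mtphr2 libraries.

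The 5 nearest to MYB1 were farther away, by a distance that also grows with the size of change. They were a GDSL-like lipase gene, MTR_8g074560 (0.300), a lipid transfer protein gene, MTR_4g077180 (0.320), an AP2 factor gene, MTR_7g009410 (0.359), an oxidoreductase gene, MTR_8g035880 (0.389), and a Kunitz-type inhibitor gene, MTR_0084s0030 (0.401). MTR_8g074560 had 211, 100.3 and 54.9 CPM in R108 replicates 1, 2 and 3 and 42.1, 0.553 and 5.48 CPM in Mtphr2 replicates 1, 2 and 3. MTR_8g074560 shared the steep drop in Mtphr2 replicate 2, which its choice by likeness to MYB1 favours. None of these 15 neighbours passed edgeR's test, where 0.0794% of all tested genes did. They were picked for likeness to genes that did not pass, so this adds no separate result.

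Hydrolases of the kind that MYB1 is known for were followed as the papain proteases with SAG39, a senescence protease of rice, as closest Swiss-Prot entry. Of 13 listed, 10 were tested, 8 with negative and 2 with positive log2 fold changes (median -3.86), and 0 passed edgeR's test, although 8 had an unadjusted p under 0.05 (16.4% of all tested genes) and 6, all lower, passed with the replicate block (0.335% of all). DESeq2 called 2, 1 lower and 1 higher (5.73% of all), and gave no adjusted p for 5, and limma-voom called 0. Most of them were stepped differently from MYB1 across libraries. Of the 8 with at least 5 CPM, 6, picked by a step of over 10-fold between these libraries, were 10.7- to 13.2-fold higher in R108 replicate 1 than in R108 replicate 2, where MYB1 was 2.28-fold higher, and their R108 replicates 2 and 3 were 0.879- to 1.08-fold apart, where MYB1 differed 1.72-fold. Between Mtphr2 replicates 1 and 3 these 6 differed 19.1- to 31.7-fold and MYB1 6.97-fold. In Mtphr2 replicate 3 the 6 had only 0.143 to 0.762 CPM, against 36.9 CPM for MYB1, so that step rests on few counts. In the same 3 steps, MTR_4g079470 differed 6.69-, 1.51- and 5.62-fold, the last 2 of them close to MYB1, and MTR_4g080360 differed 0.857-, 2.54- and 4.07-fold. Of 29 tested chitinase genes, 11 had negative and 18 positive log2 fold changes (median 0.43), and edgeR and limma-voom called 0. DESeq2 called 4, 2 lower and 2 higher (5.73% of all), and left 3 of the 29 without an adjusted p. With the replicate block 2 passed, both lower (0.335% of all), and both were among those 3.

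Upstream of RAM1 act the kinase DMI3 and its target IPD3, whose counterparts in Lotus japonicus turn on the RAM1 promoter together with a DELLA protein, and NSP1 and NSP2 are GRAS partners in the same signalling. Their fitted differences were smaller than those of the 3 genes, and whether they differ from those was not tested. The log2 fold changes were -0.55 for DMI3 (SE 0.347), -0.27 for IPD3 (SE 0.200), -0.40 for DELLA1 (SE 0.117), -0.68 for NSP1 (SE 0.50) and -0.86 for NSP2 (SE 0.465). All 5 were negative, as were 47.7% of all tested genes, and 0 passed edgeR's test, DESeq2 or limma-voom. By edgeR 1, DELLA1, had an unadjusted p under 0.05, as had 16.4% of all tested genes. DELLA1 had 145, 118 and 136 CPM in R108 replicates 1, 2 and 3 and 98.4, 91.9 and 112 CPM in Mtphr2 replicates 1, 2 and 3. Its genotypes did not overlap, and 10.6% of all tested genes were likewise lower in Mtphr2 without overlap. IPD3, in contrast, had 31.5, 21.3 and 19.2 CPM in R108 and 18.8, 19.5 and 21.5 CPM in Mtphr2, and its genotypes overlapped, with R108 replicate 1 above all other libraries.

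Other GRAS genes lay to both sides of 0. Of 65 other GRAS genes by annotation, 49 were tested, 21 with negative and 28 with positive log2 fold changes (median 0.08). Of these, 0 passed edgeR's test, 14 had an unadjusted p under 0.05 (16.4% of all tested genes), DESeq2 called 5, 2 lower and 3 higher (5.73% of all), and limma-voom 0. MTR_2g097463, like the SCL14 protein of Arabidopsis, passed with the replicate block and was higher in Mtphr2, with an adjusted p by edgeR of 0.0426 and a log2 change of 1.08. By mean level per kb RAM1 ranked 2nd and RAD1 12th among the 51 tested genes of this list, themselves included, in R108, and 25th and 33rd in Mtphr2. The list was made by annotation words and leaves out NSP1 and NSP2. In Mtphr2 these had 5.81 and 5.21 CPM per kb, above the 5.07 of RAD1.

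Among the other GRAS genes 3 had a larger fitted fall in Mtphr2 than RAD1, and they are named here after their values were seen. MTR_3g022830, whose closest Swiss-Prot entry is the Medicago GRAS protein TF80, had 88.6, 45.6 and 22.3 CPM in R108 replicates 1, 2 and 3 and 18.0, 2.99 and 6.57 CPM in Mtphr2 replicates 1, 2 and 3. Its log2 change was -2.51, with an adjusted p of 0.235 from edgeR and 0.00714 from DESeq2. MTR_1g086970, whose closest Swiss-Prot entry is the RAM1 protein of petunia, had 216, 103 and 55 counts in R108 and 33, 1 and 1 counts in Mtphr2. Its log2 change was -3.52, with an adjusted p of 0.260 from edgeR and 0.0463 from DESeq2. This second RAM1-like gene was therefore far less abundant than RAM1 and nearly without counts in the 2 Mtphr2 libraries with the lowest marker mean. The SCARECROW-like gene MTR_1g069725 changed by -1.89 on the log2 scale with an edgeR adjusted p of 0.371, and its R108 replicate 3, at 1.63 CPM, was below all Mtphr2 libraries.

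MYB1 was the most abundant gene of its own family in 5 of the 6 libraries. Among 16 tested genes like PHR or PHL proteins, MYB1 included, it ranked 1st per kb in 5 libraries and 14th in Mtphr2 replicate 2. Its share of the family's summed level per kb was 81.8%, 66.3% and 57.8% in R108 replicates 1, 2 and 3 and 51.3%, 2.67% and 13.3% in Mtphr2 replicates 1, 2 and 3. Of the other 15, 9 had negative and 6 positive log2 fold changes (median -0.09), 0 passed edgeR's test, 5 had an unadjusted p under 0.05 (16.4% of all tested genes), DESeq2 called 4, 3 lower and 1 higher (5.73% of all), and limma-voom 0.

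Of 5 other genes with PHL5 as closest Swiss-Prot entry, 2 had enough counts to test. MTR_7g093030 had 43.4, 32.3 and 20.3 CPM in R108 replicates 1, 2 and 3 and 13.2, 13.1 and 10.9 CPM in Mtphr2 replicates 1, 2 and 3. MTR_1g053835 had 28.1, 30.7 and 27.8 CPM in R108 and 19.7, 17.3 and 15.3 CPM in Mtphr2. Both were lower in every Mtphr2 library than in any R108 library, as were 10.6% of all tested genes. Their log2 changes were -1.37 (SE 0.277) and -0.72 (SE 0.124), with adjusted p of 0.153 and 0.134 by edgeR, and of 6.21e-04 and 2.29e-04 by DESeq2. Unlike MYB1, neither dropped further in Mtphr2 replicate 2.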

How the data were processed

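Per the labels' protocols, the authors extracted RNA with TRIzol from mycorrhizal roots, sequenced it on an Illumina NovaSeq 6000 and mapped reads to version 4.0 of the Medicago truncatula genome. HISAT2, StringTie and DESeq2 are named in the submitters' processing notes, without versions or the counting program. The deposited values are estimated counts per locus, not scaled to depth, and the deposited table also gives a length in bases that is used for levels per kb.

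Estimated counts were rounded to whole numbers. Loci were kept with filterByExpr (minimum count 10, minimum total 15) and scaled by TMM (factors 0.955 to 1.02). Genotypes were compared by edgeR 4.0.16 in R 4.3.3 with Benjamini-Hochberg adjustment over all 22663 loci at 0.05, with DESeq2 1.42.0 and limma-voom (limma 3.58.1) as alternatives. Ratios and profiles use log2 CPM with a prior of 2 counts. SE is the log2 fold change divided by the root of the F statistic.

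Genes and lists were chosen with earlier results of these data known. The text names the 3 genes, 12 markers and 5 upstream genes by locus (all of the annotated kind), called genes and at most 3 genes of the lowest p from lists by annotation words, and the 5 nearest described genes with at least 5 CPM. From the PHR and PHL list 14 unrelated entries were removed.

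Replicate numbers are shared by the genotypes. After genotype means were removed, same-number libraries correlated at 0.377, 0.151 and 0.168 across genes. Each was above 0.1, so a fit with that number as a term (the replicate block) was also run. For pairs with unlike numbers, the coefficients lay between -0.31 and 0.187. The highest of these, R108 replicate 3 with Mtphr2 replicate 2, exceeded the same-number values 0.151 and 0.168. Only the replicate 1 pair therefore stood above every unlike pair, and whether equal numbers mark a true pairing was not tested. Libraries of a genotype were not duplicates, with a chi-square per degree of freedom of 23.8 to 49.3. The fits were tested on simulated data with 200 changed genes of 22367 tested. There edgeR recovered 18.7% of 2-fold and 68.9% of 4-fold changes with 10.9% of calls false, and DESeq2 53.8% and 85.8% with 34.6% false. Whether these rates hold for RAM1, RAD1 and MYB1, whose libraries ranged up to 37.7-fold within a genotype, was not tested.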

Additional observations from a re-analysis of the deposited data

How the results depend on the processing

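In all alternatives run (DESeq2, limma-voom, 3 other scalings, 2 other filters, the replicate block, the marker mean as covariate and each library left out), RAM1, RAD1 and MYB1 kept negative log2 changes, and the only call was that of RAD1 by DESeq2 (-1.90, adjusted p = 0.00504). The sizes were not kept with the marker mean as covariate, where they shrank to -0.28 for RAM1, -0.37 for RAD1 and -0.59 for MYB1. Other scalings moved the median of all genes by less than 0.1. The number of genes called, 18, was 1298 by DESeq2, 31 by limma-voom, 34 without a filter and 76 with the replicate block, and 7 to 44 with 1 library left out (8 without R108 replicate 2 or 3, 44 without Mtphr2 replicate 1, 7 without Mtphr2 replicate 2 or 3). In the lists, where edgeR called 0, DESeq2 called 3 markers, 5 GRAS genes, 4 of the PHR and PHL family, 2 SAG39-like proteases and 4 chitinases, and the replicate block 1, 1, 0, 6 and 2 in the same order. Of all tested genes DESeq2 called 5.73% and the replicate block 0.335%. The causes were not tested. All 6 ratios kept their sign under every prior count and with each library left out, from -2.15 to -0.80 for MYB1 to the marker mean and from -0.30 to -0.04 for RAM1 to the marker mean. Within pairs of the same replicate number, MYB1 to the marker mean differed by -0.10, -2.81 and -1.67 (p = 0.25 in an exact sign-flip permutation test, the smallest possible for 3 pairs). The replicate block changed no other call among the 3 genes and the 17 listed loci than that of SWEET1b.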
